A study of Mus musculus with 2 samples.

Results

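The immediate early genes and the AP-1 subunits were followed as 10 named genes, Fos, Fosb, Jun, Junb, Jund, Egr1, Ier2, Nr4a1, Dusp1 and Atf3, out of 31053 genes in the deposited matrix of single bone marrow cells. They were chosen by name, and all 10 had a row. The cells came from 2 labelled samples of C57BL/6JRj mice, 1 of old animals (22 to 28 months) and 1 of young animals (3 to 5 months), each sorted as LSK, the lineage-negative, Sca-1-positive, c-Kit-positive stem and progenitor fraction. By the methods of the study each age was pooled from 4 mice, so there was 1 library per age. Marrow was stained in several steps, sorted into buffered saline with albumin, washed and counted before capture, and antibody tags against CD150, CD48 and CLCA3A1 were read in the same cells. The barcodes end in suffix 1 or 2, no label pairs a suffix with an age, and the ages were therefore not compared. Each suffix is described on its own. Levels are given as CPM, the summed UMIs of a gene in a group of cells per 1000000 UMIs of that group, and UMIs count captured transcripts. Every interval below is a 95% interval that covers counting error only, cells are not replicates, and no p-value was computed.

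Immediate early genes are transcribed within minutes of a stimulus from factors already present in the cell, mainly the serum response factor with its ternary complex partners and CREB, which are switched on by kinase cascades. FOS and JUN family proteins pair into the AP-1 dimer, which binds DNA and drives later genes, while EGR1, a zinc finger factor, and NR4A1, an orphan nuclear receptor, act beside it and DUSP1 removes the phosphates from the kinases that set the response off. In hematopoietic tissue such genes are known both as parts of the quiescent stem cell program and as transcripts that tissue handling and cell sorting can bring up.

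The promoters of 8 of the 10 genes, all but Egr1 and Ier2, were in the RefSeq table (GRCm38.p6). A window of 300 bases, from 250 before to 50 after each start, was searched on both strands for the CArG box that serum response factor reads, for the CRE (TGACGTCA), for the AP-1 site (TGANTCA) and for the TATA box (TATAAA). No window of the 8 held a CArG box or an AP-1 site, which 1.63% and 7.81% of all 32851 promoters of the table held. Matches at such shares are rare, so their absence from 8 windows says little about these genes, and bases further upstream were not searched. Dusp1 held a CRE, 143 to 136 bases before its start, as 1.79% of all promoters did. Fos held a TATA box 33 to 28 bases before its start, and Junb held one whose first base is its RefSeq start, 30 to 25 bases before its GENCODE start and beyond the bases shown here, while 13.6% of all promoters had a match. These matches are descriptions of letters in a window. The windows follow RefSeq, whose starts were 0 to 30 bases from the start of the GENCODE gene for Fos, Fosb, Jun and Junb, but 1210 for Jund, 12577 for Nr4a1, 34706 for Atf3 and 53656 for Dusp1, so a missing match there holds for the RefSeq start only. The 250 bases before the start are shown for Fos, Fosb and Jun, whose UMIs went together across cells, for Junb, which went less with Fosb and Jun in CD150-high CD48-low cells, and for Dusp1, with a TATA box or CRE in capitals.
Fos, chr12:85473640-85473889, plus strand: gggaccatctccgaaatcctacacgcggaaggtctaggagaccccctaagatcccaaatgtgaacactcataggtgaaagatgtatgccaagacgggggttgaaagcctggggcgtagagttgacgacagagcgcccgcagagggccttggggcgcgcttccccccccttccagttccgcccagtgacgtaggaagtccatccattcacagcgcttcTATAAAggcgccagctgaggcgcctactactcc
Fosb, chr7:19310046-19310295, minus strand: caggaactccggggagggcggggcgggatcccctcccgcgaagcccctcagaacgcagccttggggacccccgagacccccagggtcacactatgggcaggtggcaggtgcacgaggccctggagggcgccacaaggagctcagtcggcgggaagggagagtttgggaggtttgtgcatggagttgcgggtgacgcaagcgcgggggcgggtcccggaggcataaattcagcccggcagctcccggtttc
Jun, chr4:95052223-95052472, minus strand: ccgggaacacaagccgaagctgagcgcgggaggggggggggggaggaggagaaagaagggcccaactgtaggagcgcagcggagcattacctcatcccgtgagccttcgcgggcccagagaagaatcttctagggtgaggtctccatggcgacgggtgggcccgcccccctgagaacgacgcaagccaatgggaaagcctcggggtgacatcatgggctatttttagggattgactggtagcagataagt
Junb, chr8:84978749-84978998, minus strand: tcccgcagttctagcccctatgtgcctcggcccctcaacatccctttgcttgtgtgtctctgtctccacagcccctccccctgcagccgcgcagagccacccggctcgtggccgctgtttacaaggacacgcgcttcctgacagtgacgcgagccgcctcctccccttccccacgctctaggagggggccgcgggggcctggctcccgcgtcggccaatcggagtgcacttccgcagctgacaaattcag
Dusp1, chr17:26508473-26508722, minus strand: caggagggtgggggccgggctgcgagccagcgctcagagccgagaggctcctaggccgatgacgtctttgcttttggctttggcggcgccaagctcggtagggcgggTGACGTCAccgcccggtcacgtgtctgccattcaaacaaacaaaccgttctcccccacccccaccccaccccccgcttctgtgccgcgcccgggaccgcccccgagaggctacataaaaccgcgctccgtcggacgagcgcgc

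Of 4688 barcodes, 4068 had under 10% mitochondrial UMIs and over 1500 detected genes, 3986 of these had tags, and no barcode was shared by the suffixes. The median kept cell had 15024 UMIs in suffix 1 and 14766 in suffix 2. Cells were split by tags within each suffix, with CD150 called high from the 75th percentile and CD48 called low up to the 25th. This gave 172 CD150-high CD48-low cells in suffix 1 and 383 in suffix 2, the surface phenotype under which long-term stem cells are usually sorted, and 912 and 1615 CD150-low CD48-high cells, the progenitor phenotype. The percentiles fix the size of each split and not a tag level, since the CD48 limit was 224 tags in suffix 1 and 42 in suffix 2 and the CD150 limit 40 and 407, so a gate need not hold the same cells in each. The CD150-low CD48-low gate of suffix 2 had a median of 84 CD150 tags, above the limit for high in suffix 1. Kit was seen in 84.6% and 82.7% of cells of suffix 1 and 2 and Ly6a, which encodes Sca-1, in 86.8% and 94.5%, while Cd3e had no UMI. Igkc was seen in 3.27% and 65.5% of cells, and 12 kept cells held over 5% immunoglobulin UMIs, and the part of free RNA in the levels was not tested. Of 10 stem cell markers tested, 9 were over 1.5-fold higher in the CD150-high CD48-low than in the CD150-low CD48-high gate in each suffix, with Vwf 24.2-fold and 31.4-fold higher. Of 10 progenitor markers listed, 6 were tested and all 6 were lower. Slamf1, among the 9, encodes CD150, and Cd48 is among the 6. The gates were cut on the tags of these proteins, so neither gene is a separate check of the gates.

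Summed over the 10 genes, UMIs were higher in the CD150-high CD48-low than in the CD150-low CD48-high gate in each suffix. The sum was 2447 CPM in the CD150-high CD48-low gate of suffix 1, 2788 in the CD150-low CD48-low gate, 1953 in the CD150-high CD48-high gate and 1888 in the CD150-low CD48-high gate. In suffix 2 it was 2255, 2086, 2039.7 and 1482. The ratio of the first to the last gate was 1.3 in suffix 1 (log2 0.37, 0.33 to 0.42) and 1.52 in suffix 2 (log2 0.61, 0.58 to 0.64). Both CD48-low gates lay above both CD48-high gates in each suffix, and in suffix 1 the CD150-low CD48-low gate held the highest sum. In suffix 2 the intervals of the CD150-low CD48-low and CD150-high CD48-high sums overlapped.

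**Figure D1:**
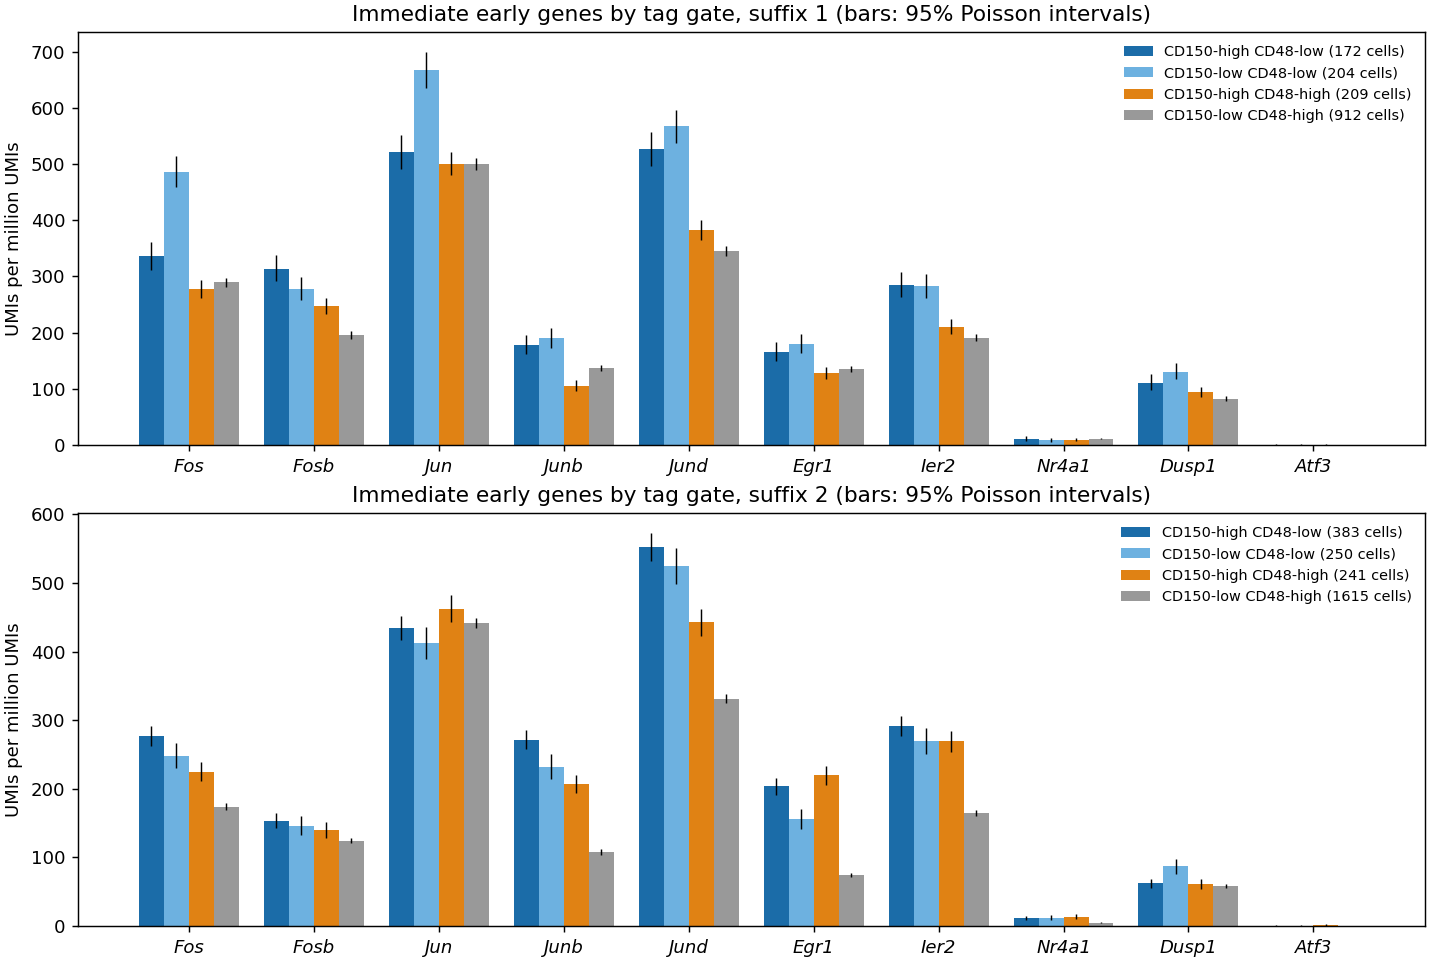
CPM (vertical axis) of the 10 genes in the 4 tag gates, suffix 1 above and suffix 2 below, with bars for 95% Poisson intervals that cover counting error only. Jund and Ier2 are higher in both CD48-low gates than in the CD150-low CD48-high gate in each suffix, Jun is nearly level in suffix 2, and Atf3 lies at the bottom of the axis.

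The FOS subunits differed between the suffixes. Fos (chromosome 12, 85473890 to 85477273, plus strand, GRCm38) was at 336 CPM in the CD150-high CD48-low gate, 486 in the CD150-low CD48-low gate, 277 in the CD150-high CD48-high gate and 289 in the CD150-low CD48-high gate of suffix 1. In suffix 2 Fos was at 277, 248, 225 and 174 CPM in the same order of gates. In suffix 1 the CD150-low CD48-low gate was the highest and the intervals of the CD48-high gates overlapped, while in suffix 2 the CD150-high CD48-low gate was highest and the CD150-low CD48-high gate lowest. The ratio of the CD150-high CD48-low to the CD150-low CD48-high gate was 1.16 (1.07 to 1.25) in suffix 1 and 1.59 (1.5 to 1.69) in suffix 2. Fosb (chromosome 7, 19302696 to 19310051, minus strand), a close relative of Fos, was at 314 CPM in the CD150-high CD48-low gate, 277 in the CD150-low CD48-low gate, 248 in the CD150-high CD48-high gate and 196 in the CD150-low CD48-high gate of suffix 1. In suffix 2 Fosb was at 153, 146, 139.7 and 125 CPM in the same order of gates. Its levels were lower gate by gate in that order in each suffix, with ratios of 1.61 (1.48 to 1.74) and 1.23 (1.14 to 1.33), and the first 3 gates of suffix 2 had overlapping intervals.

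Among the JUN subunits, Jund was the one that differed by gate to a like degree in each suffix. Jund (chromosome 8, 70698949 to 70700616, plus strand), a broadly expressed JUN subunit, was at 526 CPM in the CD150-high CD48-low gate, 567 in the CD150-low CD48-low gate, 382 in the CD150-high CD48-high gate and 346 in the CD150-low CD48-high gate of suffix 1. In suffix 2 Jund was at 553, 524, 443 and 332 CPM in the same order of gates. Both CD48-low gates were above both CD48-high gates in each suffix, with ratios of the CD150-high CD48-low to the CD150-low CD48-high gate of 1.52 (1.43 to 1.62) and 1.67 (1.6 to 1.74). Junb (chromosome 8, 84974484 to 84978718, minus strand), which can restrain JUN at shared targets, was at 178 CPM in the CD150-high CD48-low gate, 189.6 in the CD150-low CD48-low gate, 106 in the CD150-high CD48-high gate and 137 in the CD150-low CD48-high gate of suffix 1. In suffix 2 Junb was at 271, 232, 207 and 108 CPM in the same order of gates. It was lowest in the CD150-high CD48-high gate of suffix 1 but in the CD150-low CD48-high gate of suffix 2, and the ratios of the outer gates were 1.3 (1.16 to 1.44) and 2.52 (2.36 to 2.68). Jun (chromosome 4, 95049034 to 95052222, minus strand), the classical partner of FOS, was at 521 CPM in the CD150-high CD48-low gate, 667 in the CD150-low CD48-low gate, 499.8 in the CD150-high CD48-high gate and 501 in the CD150-low CD48-high gate of suffix 1. In suffix 2 Jun was at 434, 412, 462 and 442 CPM in the same order of gates. Its CD150-low CD48-low gate of suffix 1 was above the other gates, and otherwise its levels ran from 412 to 521, with ratios of 1.04 (0.978 to 1.11) and 0.982 (0.939 to 1.03) whose intervals include 1.

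Egr1, like Junb, was more unequal across the gates of suffix 2, while Ier2 had the same order of outer gates in each suffix. Egr1 (chromosome 18, 34859823 to 34864984, plus strand) was at 166 CPM in the CD150-high CD48-low gate, 179.7 in the CD150-low CD48-low gate, 128 in the CD150-high CD48-high gate and 135 in the CD150-low CD48-high gate of suffix 1. In suffix 2 Egr1 was at 203, 156, 219.5 and 74.1 CPM in the same order of gates. In suffix 2 the CD150-low CD48-high gate was far below the other gates and both CD150-high gates were highest, whereas in suffix 1 the CD48-low gates were above the CD48-high gates. The ratios of the CD150-high CD48-low to the CD150-low CD48-high gate were 1.23 (1.1 to 1.37) and 2.74 (2.55 to 2.95). Ier2 (chromosome 8, 84661331 to 84662852, minus strand), a short nuclear protein of the early response, was at 285 CPM in the CD150-high CD48-low gate, 283 in the CD150-low CD48-low gate, 209.7 in the CD150-high CD48-high gate and 191 in the CD150-low CD48-high gate of suffix 1. In suffix 2 Ier2 was at 291, 269.5, 269 and 165 CPM in the same order of gates. The CD48-low gates of each suffix had overlapping intervals and lay above the CD150-low CD48-high gate, with ratios of 1.5 (1.37 to 1.63) and 1.77 (1.67 to 1.87).

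The nuclear receptor Nr4a1 (chromosome 15, 101254269 to 101274795, plus strand) was sparse, at 10.2 CPM in the CD150-high CD48-low gate, 8.71 in the CD150-low CD48-low gate, 9.02 in the CD150-high CD48-high gate and 11.4 in the CD150-low CD48-high gate of suffix 1. In suffix 2 Nr4a1 was at 11, 11.8, 13.3 and 4.41 CPM in the same order of gates. Its gates overlapped in suffix 1, with a ratio of 0.896 (0.555 to 1.38), and in suffix 2 the CD150-low CD48-high gate was lowest, with a ratio of 2.5 (1.8 to 3.42). The phosphatase gene Dusp1 (chromosome 17, 26505590 to 26562128, minus strand) was at 111 CPM in the CD150-high CD48-low gate, 130.2 in the CD150-low CD48-low gate, 94.3 in the CD150-high CD48-high gate and 82.3 in the CD150-low CD48-high gate of suffix 1. In suffix 2 Dusp1 was at 61.9, 86.8, 60.5 and 58.2 CPM in the same order of gates. Its CD150-low CD48-low gate was the highest in each suffix, though in suffix 1 the interval overlapped that of the CD150-high CD48-low gate, and its ratios of the outer gates were 1.35 (1.18 to 1.54) and 1.06 (0.943 to 1.2). Atf3 (chromosome 1, 191170296 to 191218039, minus strand), a stress-responsive factor that dimerizes with JUN proteins, had 23 UMIs in all 3986 tagged cells, with 5 in suffix 1 and 18 in suffix 2. It had none in either CD48-low gate of suffix 1, where 3 UMIs would have been 1.33 and 1.19 CPM, so no difference in Atf3 was detectable at this depth.

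Against all genes, few of the 10 reached a 1.5-fold difference in both suffixes. The rule compared log2 of CPM plus 10 over 9810 genes that had a UMI in 10% or more of cells in 1 or more gates of each suffix, which 9 of the 10 genes passed and Atf3 did not. Jund alone, 1 of 9, was 1.5-fold higher in the CD150-high CD48-low than in the CD150-low CD48-high gate in both suffixes, where 4.02% of all tested genes were, and none of the 9 was lower, where 5.62% were. Ier2 in suffix 1, Fosb in suffix 2 and Fos in suffix 1 were under that fold on this scale. No gene of the 9 passed after each cell was thinned to 9000 UMIs (3.29% of all tested genes higher), among the cells of that depth without thinning (4.01%), as a mean over cells (3.3%), or with CD150 split at the 90th and CD48 at the 10th percentile (4.51%). With over 2500 genes and under 5% mitochondrial UMIs asked of each cell, which left 19 and 33 cells of 9000 or more UMIs in the CD150-high CD48-low gate, Fosb, Jun and Ier2 passed and Jund did not (5% of all tested genes higher). The median log2 ratio of the 9 genes was 0.35 in suffix 1 and 0.64 in suffix 2, beside -0.01 and -0.06 over all tested genes. Jund was also the 1 of 9 higher in the CD150-low CD48-low than in the CD150-low CD48-high gate (1.61% of all genes higher, 3.71% lower, with no member lower). None of the 9 passed in either direction between the CD150-high CD48-high and the CD150-low CD48-high gate (1.38% higher, 0.846% lower) or between the CD150-high CD48-low and the CD150-high CD48-high gate (0.051% higher, 2.02% lower).

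The gates also differed in cell cycle transcripts, and the difference in the early genes was much smaller among cells without them. The sum of 10 cell cycle genes was 345 CPM in the CD150-high CD48-low gate against 1370.2 in the CD150-low CD48-high gate of suffix 1, and 77.5 against 1323 in suffix 2, with all 10 over 1.5-fold lower in the former in both suffixes. After thinning each cell to 9000 UMIs, 44.9% of CD150-high CD48-low and 22.2% of CD150-low CD48-high cells of suffix 1 had no UMI of these 10 genes, against 59.2% and 21% in suffix 2. Within those cells the summed early genes were at 2538 and 2523 CPM in suffix 1, a ratio of 1.01 (log2 0.0087, -0.06 to 0.08). In suffix 2 they were at 2282 and 2082, a ratio of 1.1 (log2 0.13, 0.09 to 0.18). In every gate of each suffix the cells with a cell cycle UMI had the lower sum, for example 1754 and 1368 CPM in the CD150-low CD48-high gates, though the intervals overlapped in the CD150-low CD48-low gate of suffix 1 and the CD150-high CD48-low gate of suffix 2. Among all cells of 9000 or more UMIs, thinned to that depth, the ratios were 1.2 and 1.37. Without thinning, the cells of that depth had ratios of 1.28 and 1.52. Both this choice and the split by cell cycle UMIs were made after the data were seen. Cells of the CD150-low CD48-high gate with a cell cycle UMI had a median of 19660.0 UMIs in suffix 1 and 18743 in suffix 2, against 13109 and 13572 in those without, and the part of depth in the difference was not tested.

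Gene by gene, the ratio of the CD150-high CD48-low to the CD150-low CD48-high gate among cells with no cell cycle UMI was 1.19 in suffix 1 and 1.17 in suffix 2 for Jund, and 1.18 and 1.31 for Ier2. Both stayed above 1 with intervals that exclude it. Egr1 and Junb kept 1.63 and 1.47 in suffix 2 but were at 0.85 and 1.03 in suffix 1. Jun was lower in the CD150-high CD48-low gate in both suffixes, at 0.857 and 0.835, and Fos was at 0.766 and 1.03. Fosb was at 1.26 and 0.879 and Dusp1 at 1.33 and 0.735, each above 1 in suffix 1 and below 1 in suffix 2 with intervals that exclude it, and Nr4a1 was at 0.738 and 1.25 with intervals that include 1. None of the 9 genes tested was 1.5-fold higher in both suffixes in these cells, where 2.65% of all tested genes were.

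**Figure D2:**
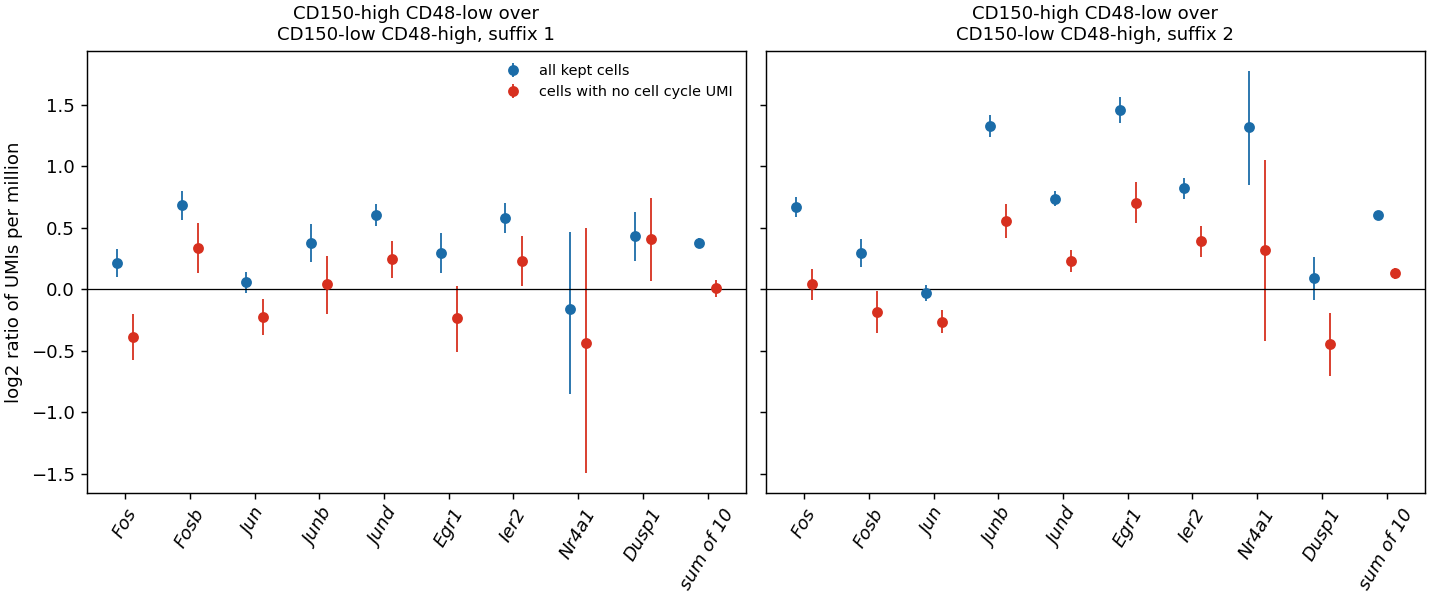
Log2 ratio of CPM (vertical axis) of the CD150-high CD48-low to the CD150-low CD48-high gate for 9 genes and the sum of the 10, in all kept cells and in cells of 9000 or more UMIs with no cell cycle UMI, by suffix, with exact conditional 95% intervals for counting error. The summed ratio is log2 0.37 and 0.0087 in suffix 1 and 0.61 and 0.13 in suffix 2, and over all cells of 9000 or more UMIs it was 0.36 and 0.60.

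Over the whole range of the tags, the sum of the early genes went down with CD48 in each suffix and was highest at high CD150 in suffix 2. From the lowest to the highest quintile of cells by CD48 tag, their sum went from 2654 through 2120.2 in the middle quintile to 1571 CPM in suffix 1, and from 2184 through 1888 to 1137 in suffix 2, with each quintile below the one before. Over all tagged cells the thinned sum had correlations of -0.223 and -0.29 with the CD48 tag, and of -0.219 and -0.0926 with tag reads that matched no antibody, whose part in the trend was not tested. By CD150 tag the sum stayed between 1890.2 and 2089 in suffix 1, and in suffix 2 it was 1479 in the lowest and 2185 in the highest quintile. Jun did not follow the sum in suffix 2, where it went from 419 in the lowest through 507 in the middle to 362 CPM in the highest quintile by CD48, and was at 467 in the lowest and 448 in the highest by CD150. Dusp1 was at 60 and 56.7 CPM in the lowest and highest quintiles by CD150 of suffix 2. Egr1 was at 60 and 213 CPM in those quintiles of suffix 2 but 146 and 143 in suffix 1. By the tag for CLCA3A1, a surface protein that the study used to divide long-term stem cells of old mice, the sum was 2083 in the lowest and 1869 in the highest quintile of suffix 1, and 1285 and 2215 in suffix 2. Inside the CD150-high CD48-low gate the trend by CLCA3A1 was small: cells above the median tag had 0.87 (0.825 to 0.917) times the sum of the rest in suffix 1 and 1.09 (1.05 to 1.13) times in suffix 2. Fos had a ratio of 0.725 (0.626 to 0.838) in suffix 1 and 1.08 (0.977 to 1.2) in suffix 2, and Junb was below 1 in each, with 0.753 (0.615 to 0.921) and 0.864 (0.778 to 0.96). Jun had 0.836 (0.744 to 0.939) and 1.32 (1.21 to 1.43) and Dusp1 0.731 (0.564 to 0.945) and 1.27 (1.02 to 1.6), on opposite sides of 1 in the suffixes.

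**Figure D3:**
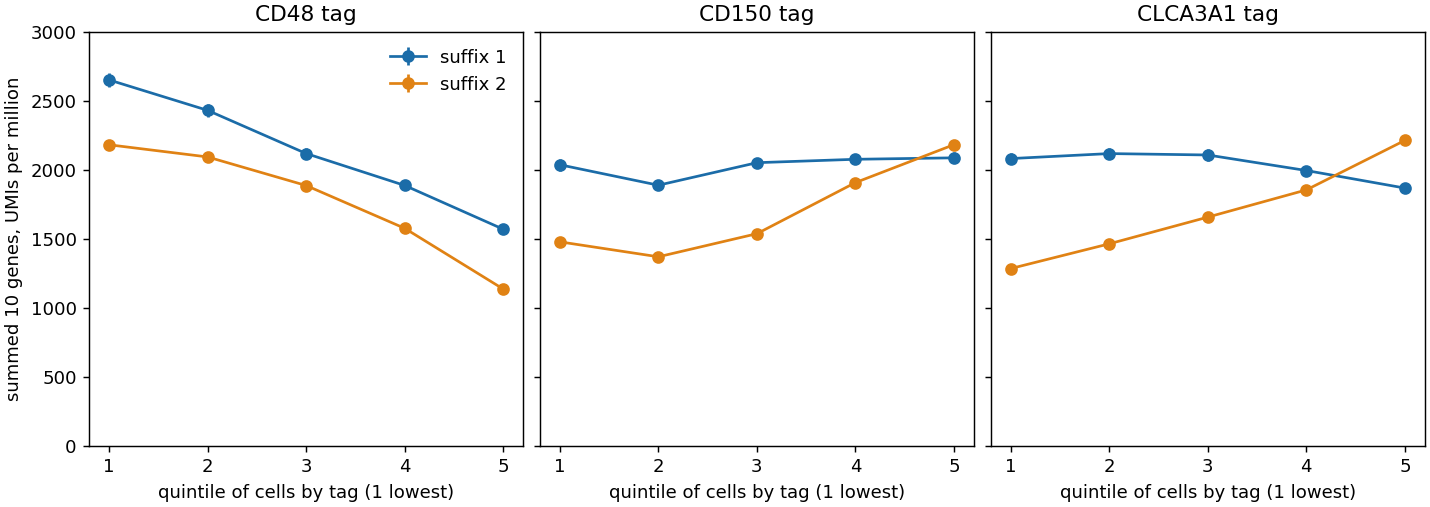
Summed CPM of the 10 genes (vertical axis) over quintiles of cells by CD48, CD150 and CLCA3A1 tag (horizontal axis, 1 lowest), each suffix as a line, with 95% Poisson intervals that are mostly smaller than the points. The CD48 lines fall in both suffixes, from 2654 to 1571 and from 2184 to 1137, and the CLCA3A1 lines run from 2083 to 1869 and from 1285 to 2215.

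Between the suffixes, Fosb and Dusp1 were lower in suffix 2 within the CD150-high CD48-low gate, at ratios of suffix 2 to suffix 1 of 0.488 (0.44 to 0.54) and 0.558 (0.471 to 0.66). They were 2 of 9 genes lower by 1.5-fold, where 4.1% of all tested genes were, and none of the 9 was higher by that fold on the scale with 10 CPM added, where 2.34% were. Without that addition Junb had 1.52 (1.36 to 1.71) and Egr1 1.22 (1.09 to 1.38), while Jund at 1.05 (0.981 to 1.12) and Ier2 at 1.02 (0.932 to 1.12) had intervals that include 1. The suffixes are 1 library each, so age, library and sort cannot be told apart here.

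Across cells most pairs of the early genes had positive correlations, which differed from pair to pair. Spearman correlations were taken over cells thinned to 9000 UMIs, and the points of a suffix share 1 library made from pooled mice. In the CD150-high CD48-low gate the median over pairs of the 10 genes was 0.18 in suffix 1 (36 pairs with Atf3 at 0 left out, 156 cells) and 0.16 in suffix 2 (45 pairs, 363 cells). The median of each member with all other tested genes was near 0, at -0.00217 and 0.000123 for Fos. Fosb with Jun had 0.539 and 0.348, Fos with Jun 0.472 and 0.355, and Jun with Jund 0.45 and 0.329. Junb with Ier2 had 0.276 and 0.306 and Junb with Egr1 0.38 and 0.229. Junb with Fosb had 0.0107 and -0.0307, Junb with Jun 0.124 and 0.00516, and Ier2 with Fosb 0.0761 and -0.0222. Fos with Egr1 had 0.299 and 0.416, the highest pair of suffix 2. The low values of Junb with Fosb and Jun did not extend to every gate, since in the CD150-low CD48-low gate of suffix 1 they were 0.266 and 0.286, beside 0.29 for Junb with Ier2 and 0.249 for Junb with Egr1. Nr4a1 had few UMIs, and its weak correlations are no finding.

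**Figure D4:**
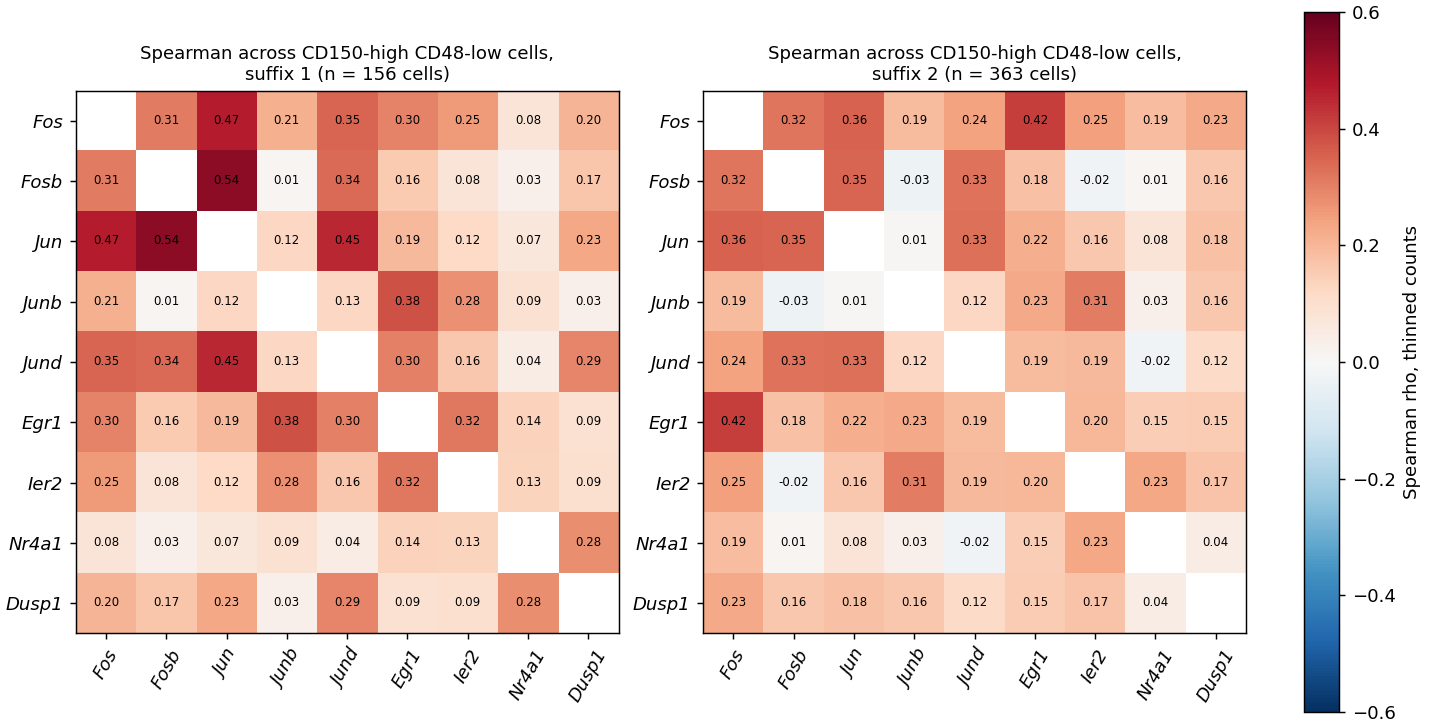
Spearman correlations of thinned counts for each pair of 9 genes across CD150-high CD48-low cells of suffix 1 (left, 156 cells) and suffix 2 (right, 363 cells). The highest value is 0.539 for Fosb with Jun in suffix 1 and 0.416 for Fos with Egr1 in suffix 2, and the squares for Junb with Fosb are near 0 in each.

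Per cell the spread was wide. The thinned sum of the 10 genes ran from 0 to 75 UMIs in CD150-high CD48-low cells of suffix 1, with a median of 20 and a 10th to 90th percentile range of 5.5 to 40.5. In suffix 2 it ran from 1 to 88, with a median of 19 and a range of 7 to 35. The variance of the thinned Fos counts over their mean was 3.69 and 4.09 in that gate, and of Jun 5.39 and 4.27, where counting alone would give 1. Fos was seen in 79.1% and 76% of those cells and Jund in 94.2% and 96.1%. The 10% of cells with most Fos held 35.8% and 41.2% of its thinned UMIs, against 27.1% and 25.6% for Jund. No cell type known to lack these genes was analysed here to set a background for the shares of cells with a UMI.

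The heat shock genes listed encode chaperones and their partners and were not limited to inducible ones. As a sum, they had correlations with the early genes near or below 0. The correlation of the summed 10 genes with 14 summed heat shock genes was -0.141 and -0.00276 in the CD150-high CD48-low gate and -0.255 and -0.209 over all tagged cells. Over all tagged cells Hspd1 had -0.251 and -0.19 and Hsp90aa1 -0.223 and -0.176, while Hspa1a had 0.0215 and -0.0309. The inducible Hspa1a and Hspa1b had 0.0616 and 0.0293 in that gate of suffix 1 and 0.0526 and 0.0892 in suffix 2. Single genes could be positive elsewhere: Dnajb4 had 0.117 and 0.125 and Dnajb1 0.086 and 0.0768 over all tagged cells, and in the CD150-high CD48-high gate they had 0.216 and 0.00777, and 0.157 and 0.198. Between the outer gates the heat shock sum was lower where the early genes were higher, at 6882 CPM in the CD150-high CD48-low and 8909.7 in the CD150-low CD48-high gate of suffix 1, and 6713 and 8904 in suffix 2. Of 11 heat shock genes tested, Dnajb4 was 1.5-fold higher in the CD150-high CD48-low gate in both suffixes (1.7-fold and 1.68-fold) and none was lower, where 4.02% and 5.62% of all tested genes were, with Hsp90aa1 at 0.661 and 0.682 and Hspa8 at 0.734 and 0.73. No unsorted sample was analysed here, so the response to the sort cannot be told apart from the state of the cells in the marrow.

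Depth and cell state went with the early genes over all tagged cells, and only weakly inside the CD150-high CD48-low gate of suffix 2. Over all tagged cells the thinned sum had correlations of -0.327 and -0.332 with UMIs per cell, -0.31 and -0.34 with the cell cycle sum, 0.245 and 0.287 with the stem cell marker sum, and 0.185 and 0.166 with the mitochondrial share. Inside the gate the same correlations were -0.201 and -0.0285, -0.122 and -0.023, 0.213 and -0.0484, and 0.132 and -0.0673. The median cell had 12917 UMIs in the CD150-high CD48-low and 16356 in the CD150-low CD48-high gate of suffix 1, and 13477 and 16320.0 in suffix 2. The median mitochondrial share was 6.54% and 5.82% in suffix 1 and 6.71% and 5.88% in suffix 2. The part of depth and RNA quality in the differences between gates was not tested. Thinning left the expected share of UMIs in each cell unchanged and weighted cells equally, as the mean over cells did. The sums under other cell filters are given below.

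The genes whose counts went most closely with the summed 10 genes included 4 genes of the immediate early list in the CD150-high CD48-low gate and 5 over all tagged cells. In the CD150-high CD48-low gate, ranked by the lower of the 2 suffixes among 9766 genes, they included Klf2 (0.383 and 0.296 in suffix 1 and 2), Zfp36 (0.377 and 0.278), Gm26802 (0.261 and 0.262), Klf6 (0.387 and 0.255), Ddx5, Clk1, Malat1 (0.309 and 0.211), Ppp1r15a (0.322 and 0.208) and Avl9. Klf2 and Klf6 are Krüppel-like factors, Zfp36 encodes a protein that speeds the decay of mRNAs with AU-rich elements, and Ppp1r15a a phosphatase subunit of the stress response to misfolded proteins. Over all tagged cells Malat1 (0.477 and 0.394), Klf6 (0.418 and 0.354), Zfp36 (0.425 and 0.354), Ppp1r15a (0.352 and 0.379) and Neat1 (0.419 and 0.324) led, followed by Klf2, Txnip, Srsf5, Ier3 and the mitochondrial mt-Co1 (0.288 and 0.255). Malat1 and Neat1 are long RNAs kept in the nucleus. The sum of 29 other immediate early genes had 0.533 and 0.517 with the sum of the 10 in the CD150-high CD48-low gate.

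Among the 22 other immediate early genes tested, 5 were 1.5-fold higher in the CD150-high CD48-low than in the CD150-low CD48-high gate in both suffixes and none was lower, where 4.02% and 5.62% of all tested genes were. These were Ppp1r15a (2.93-fold and 2.75-fold), Gadd45g (8.48-fold and 12.8-fold), Plk2 (3.92-fold and 9.48-fold), Nfkbia and Per1. Of 11 other subunits and partners of AP-1 tested, 2 were higher, Maff (5.02-fold and 5.65-fold) and Batf2 (5.16-fold and 2.86-fold), and none was lower. Of 18 upstream factors of the serum response and CREB routes and of 10 feedback inhibitors of MAP kinases tested, none passed in either direction on the scale with 10 CPM added. Without that addition Mkl2, a cofactor of the serum response factor, was at 1.62 and 2.01, and Dusp4, a relative of Dusp1, at 6.58 and 2.59. Both passed the fold only without it, so these ratios rest on levels low enough for the addition to matter, and no interval is given.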

How the data were processed

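CITE-seq, single-cell RNA sequencing with antibody tags, was available for 1 old and 1 young LSK library in 1 table of counts and 1 of tags for both. The deposited counts are whole-number UMI counts per gene and cell that the authors made with Cell Ranger 3.1.0 on mm10 (GRCm38), per the submitters' processing notes. The tag values, which the methods call log-transformed, were deposited on a log10 scale, and 10 to the value gave whole tag counts in 100% of entries within 1e-06. The barcodes' suffix was not paired with an age by any label, so all comparisons are within a suffix or between suffixes, with no test. Kept cells had under 10% UMIs from genes named mt- and over 1500 genes, and gates were cut on CD150 at the 75th and CD48 at the 25th percentile within each suffix. Counts were summed per gate (Python 3.11.15, numpy 2.4.6, scipy 1.17.1), with exact Poisson intervals for CPM, exact conditional binomial intervals for ratios, and a call of 1.5-fold in both suffixes with a pseudocount of 10. Correlations used counts thinned without replacement to 9000 UMIs, which left out 216 tagged cells. Doublets were kept, and scrublet in scanpy 1.11.5, run per suffix, marked 37 of 4068 cells. The ratio intervals, the 1.5-fold call and the correlation were tested on simulated data. Alternatives concerned cell filters, tag splits, doublets, immunoglobulin-rich cells, depth, weighting, denominator, pseudocount, fold and correlation measure. The genes named are the 10 members, up to 3 per other list by the smaller log2 ratio of the 2 suffixes, any that passed the fold, and the 10 most correlated with the members, of which 1 is not reported here. The members, lists and tests were chosen with earlier results of these data known. Gene positions are from GENCODE M21. The old and young samples were not compared, and the precision is limited by 1 library each.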

Additional observations from a re-analysis of the deposited data

Results flagged for a closer look

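Over all 6 pairs of gates, 4 genes had a ratio above 1 in one suffix and below 1 in the other, with counting intervals that exclude 1 on each side. Fos in the CD150-high CD48-low gate was 0.691 (0.63 to 0.757) times its CD150-low CD48-low level in suffix 1 and 1.11 (1.02 to 1.22) times in suffix 2. Junb in the CD150-high CD48-high gate was 0.77 (0.698 to 0.849) times its CD150-low CD48-high level in suffix 1 and 1.92 (1.78 to 2.07) times in suffix 2. Jun in the CD150-low CD48-low gate was 1.33 (1.26 to 1.4) times its CD150-low CD48-high level in suffix 1 and 0.932 (0.877 to 0.989) times in suffix 2. Between the CD150-low CD48-low and CD150-high CD48-high gates the ratio was 1.41 (1.24 to 1.59) in suffix 1 and 0.71 (0.634 to 0.795) in suffix 2 for Egr1, and 1.33 (1.25 to 1.42) and 0.891 (0.829 to 0.958) for Jun. The share of all 9810 tested genes that did so was 0.775%, 2.68%, 0.326% and 0.398% in these 4 pairs of gates, in that order. The difference between the suffixes was not tested, since each is 1 library, and the tag limits that define the gates differed between them.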

How the results depend on the processing

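The log2 ratio of the summed 10 genes, CD150-high CD48-low over CD150-low CD48-high, stayed above 0 in both suffixes under all alternatives run. It was 0.75 and 0.87 in suffix 1 and 2 with over 2500 genes and under 5% mitochondrial UMIs, 0.46 and 0.70 with both tags split at the median, 0.29 and 0.19 with CD150 at the 90th and CD48 at the 10th percentile, 0.26 and 0.46 thinned to 9000 UMIs, 0.28 and 0.45 as a mean over cells, 0.45 and 0.73 without mitochondrial and ribosomal protein genes, and 0.0087 and 0.13 in cells with no cell cycle UMI, an alternative chosen after seeing the data whose interval includes 0 in suffix 1. Without doublets, without immunoglobulin-rich cells, with no cell filter or in cells of 9000 or more UMIs it moved less than its counting interval. The count of genes 1.5-fold higher in both suffixes, 1 as reported, was 3 (Fosb, Jun and Ier2, not Jund) under the strict cell filter (5% of all tested genes), 2 (Jund and Ier2) without mitochondrial and ribosomal protein genes (6.22%), and 0 at the outer percentiles (4.51%), after thinning (3.29%), in cells of 9000 or more UMIs without thinning (4.01%, added after seeing the data), as a mean over cells (3.3%), at a fold of 2 (1.19%) and in cells with no cell cycle UMI (2.65%). The count of genes lower was 0 throughout, where 1.92% to 8.35% of all tested genes were. The median pairwise correlation was 0.366 and 0.415 under the strict filter, which left 19 and 33 cells of the gate, and 0.104 in suffix 2 at the outer percentiles. The correlation with heat shock genes was -0.0931 in suffix 2 under the strict filter, -0.191 and -0.059 at the median split and -0.265 and -0.0588 at the outer percentiles, and other settings moved these correlations by less than 0.05. Of single genes whose log2 ratio had an interval that excludes 0 as reported, those that changed sign were Dusp1 in suffix 1 (-0.028) and Nr4a1 in suffix 2 (-0.27) at the outer percentiles, and Fos (-0.38) and Egr1 (-0.24) in suffix 1 and Fosb (-0.19) in suffix 2 in cells with no cell cycle UMI. Jun in each suffix, Nr4a1 in suffix 1, and Dusp1 and Atf3 in suffix 2, whose intervals include 0, also changed sign under 1 or more alternatives. The cause was not tested. With 1 library per suffix no replicate could be left out, and Atf3 and Nr4a1 are limited by depth. No paired analysis was possible because the result comes from no test and the groups share fewer than 2 replicate numbers.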

Other observations

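Among the barcodes left out, the early genes were not uniformly lower. Their sum was 3022 CPM (2773 to 3288) in the 73 cells of suffix 1 with 1500 genes or fewer and 2797 (2654 to 2946) in the 202 of suffix 2, against 2038 and 1679.8 in the kept cells. In the cells at 10% mitochondrial UMIs or more it was 1850.4 in suffix 1, below the kept cells, and 2269 in suffix 2, above them. These barcodes had median totals of 2536 and 2445 UMIs for the first group, and the part of depth in these sums was not tested.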
